A study of Rattus norvegicus with 6 samples.

Results

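Mast cell transcripts were followed in bulk RNA sequencing of mammary tumors through 9 genes taken by symbol from the deposited count table, of 26195 rows that carry a gene name: the granule proteases Cpa3, Cma1, Mcpt1, Tpsab1 and Tpsb2, the receptors Kit, Ms4a2 and Fcer1a, and the histamine-forming enzyme Hdc. The libraries came from 6 tumors, each of a different F344 rat: tumors 102, 107 and 116 grew in older animals and tumors 157, 158 and 167 in younger animals, 3 per group. Every rat, in both groups, had a pellet of 50 mg medroxyprogesterone acetate (MPA, a progestin) placed under the skin, which releases it over 90 days, and then swallowed 65 mg per kg of the carcinogen DMBA in 1 dose. The rats were 21 to 23 months old in the older group and about 4 months old in the younger group when they received DMBA. The younger tumors were all that formed in that group and the older tumors were those with enough frozen tissue, so the samples are few and the older ones were not a random draw.

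Mast cells are tissue-resident leukocytes that mature locally under stem cell factor, the ligand of the receptor tyrosine kinase Kit, and that sit mainly in connective tissue and mucosa. Their granules hold proteases bound to serglycin proteoglycan, namely carboxypeptidase A3, chymases and tryptases, together with histamine, and these are released when antigen crosslinks IgE on the high-affinity IgE receptor. Fcer1a encodes the IgE-binding chain of that receptor and Ms4a2 its beta chain, while the gamma chain, Fcer1g, is shared with receptors of macrophages and other leukocytes. Kit is not particular to mast cells, since luminal progenitor cells of the mammary gland also make it. Basophils share the IgE receptor and histamine, and lack most of the granule proteases.

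Libraries held 3394451 to 6383983 counts in named genes, and values are given as CPM, counts scaled to a common library total with TMM factors of 0.861 to 1.13. A count of 3 corresponds to 0.528 to 1.03 CPM, and intervals on counts cover counting error only. The age groups were compared with edgeR (quasi-likelihood test) over the 13139 named genes left by its filter on low counts, with p-values adjusted over all of them. That filter kept 7 of the 9 genes and dropped Mcpt1 and Fcer1a. Tumor 102 stood apart in adipocyte transcripts (789 CPM summed over 7 markers, against 84.3 to 169 CPM in the others), and of the mast cell genes it had the lowest level for Mcpt1 alone. Mammary epithelial genes were present in all 6 tumors, for example Epcam, an epithelial adhesion protein, at 298.6 to 497 CPM and Krt8, a luminal keratin, at 99.8 to 336 CPM. In bulk tissue, fewer cells of a type and less RNA per cell cannot be told apart, and this holds for every mast cell value here.

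Cpa3, the carboxypeptidase of mast cell granules, was at 5.82, 54.97 and 0.598 CPM in older tumors 102, 107 and 116, and at 15.5, 1.98 and 75.5 CPM in younger tumors 157, 158 and 167. Tumor 167 and tumor 107 were the highest, 1 from each age group, and tumors 116 and 158, again 1 from each, were the lowest. The highest tumor (307 counts) exceeded the lowest (3 counts) by a factor of 126, with an exact 95% counting interval of 42.8 to 615. This spread lay within both age groups, so the means of 20.5 ± 30.0 CPM (SD, n = 3) in older and 31.0 ± 39.1 CPM (SD, n = 3) in younger tumors differed by less than the spread between tumors. The log2 fold change of older against younger tumors was -0.58 (standard error, SE, 1.47, 95% interval -3.99 to 2.83, edgeR adjusted p = 0.961). It was -3.36 without tumor 107 and 1.23 without tumor 167, so each of these libraries alone set its size or its direction. Tumor 107 held 89.5% of the Cpa3 CPM summed over the older tumors, and tumor 167 held 81.2% of the sum over the younger ones.

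The tryptases Tpsab1 and Tpsb2, serine proteases that cleave after basic residues and lie next to each other on chromosome 10, had the same leading tumors. Tpsb2 was at 3.77, 35.3 and 1.396 CPM in tumors 102, 107 and 116 and at 7.40, 0.721 and 23.6 CPM in tumors 157, 158 and 167. Tpsab1 was at 1.03, 24.9 and 0.399 CPM in tumors 102, 107 and 116 and at 5.81, 1.44 and 17.7 CPM in tumors 157, 158 and 167. For both genes tumors 107, 167 and 157 were the highest, in that order, and the age groups overlapped. The ratio of the highest to the lowest tumor was 48.9 for Tpsb2 (exact interval 18.7 to 182) and 62.4 for Tpsab1 (16.9 to 522). Their log2 fold changes were 0.38 (SE 1.31) and 0.11 (SE 1.37), with adjusted p = 0.975 and 0.992 (edgeR), and the signs turned with the libraries used: without tumor 107 they were -2.06 and -3.57, and without tumor 158 they were -0.18 and -0.40. The Tpsab1 value also turned to -0.10 without tumor 157, -0.089 with library totals as scaling and -1.01 with limma-voom.

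The chymases are encoded in a cluster on rat chromosome 15. Cma1, the alpha-chymase, had 3, 45 and 0 counts in older tumors 102, 107 and 116 and 13, 5 and 26 counts in younger tumors 157, 158 and 167. These are 1.03, 10.2 and 0 CPM against 2.29, 0.901 and 6.39 CPM, so tumor 107 was the highest, followed by tumors 167 and 157, and tumor 116 had none. Set against the limit that 3 counts give in tumor 116, the level in tumor 107 was at least 17.0-fold higher. The log2 fold change was 0.27 (SE 1.31, edgeR adjusted p = 0.981), and it turned to -2.81 without tumor 107, -0.18 without tumor 158 and -1.23 with limma-voom.

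Mcpt1 behaved differently from the other proteases. It had 0, 2 and 2 counts in tumors 102, 107 and 116 and 5, 3 and 31 counts in tumors 157, 158 and 167. All older tumors were below all younger ones, but 5 of the 6 libraries were at 5 counts or fewer and tumor 167 alone carried 84.3% of the younger sum. Mcpt1 did not pass the count filter; fitted without a filter it had a log2 fold change of -3.16 (SE 1.26, edgeR unadjusted p = 0.0318 and adjusted p = 0.536 over 19536 genes), in a fit where 3.14% of genes were lower in older tumors at an unadjusted p under 0.05 and 0% passed the adjusted threshold. The next gene of the cluster, Mcpt1l1, was at 5.14, 109.5 and 2.19 CPM in tumors 102, 107 and 116 and at 20.8, 4.15 and 56.8 CPM in tumors 157, 158 and 167, an order close to that of Cpa3. The symbol Mcpt1 is ambiguous here, because RefSeq lists it as an older name of Mcpt1l1 as well. The other names that RefSeq gives for Mcpt1 include both rMCP-1 and rMCP-2, and Mcpt2 has no row in the table. How reads were shared between the rows of Mcpt1 and Mcpt1l1 was not tested. Summed over both rows, the values were 5.14, 109.9 and 2.59 CPM in the older tumors and 21.7, 4.69 and 64.4 CPM in the younger tumors, and the age groups overlapped.

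**Figure D1:**
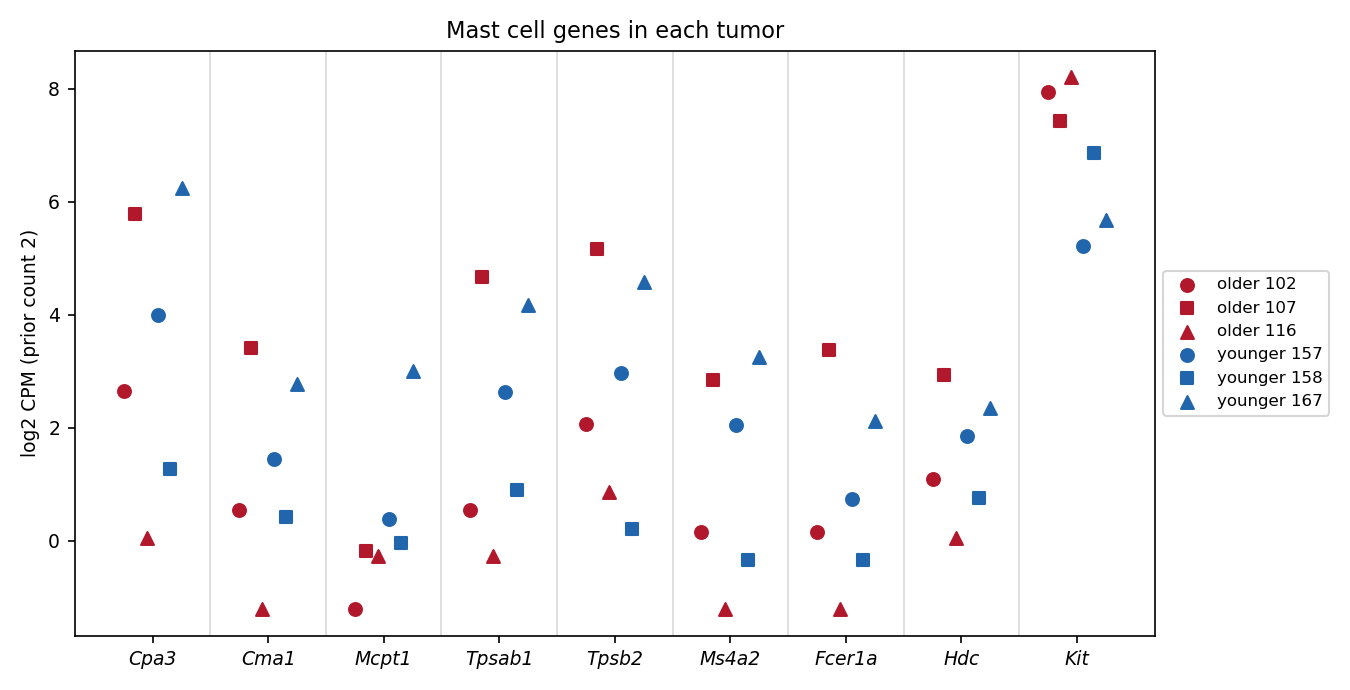
Level of each mast cell gene in each tumor, as log2 CPM with a prior count of 2, with older tumors in red and younger tumors in blue and each symbol standing for 1 tumor (no error bars, since each point is a single library). For 7 of the 9 genes tumors 107, 157 and 167 are the 3 highest, while Kit has all 3 older tumors on top. How many of all genes have these 3 highest tumors was not counted. Levels of different genes should not be compared, since they are not corrected for gene length.

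Of the IgE receptor genes, Ms4a2 had 2, 30 and 0 counts in tumors 102, 107 and 116 and 21, 2 and 37 counts in tumors 157, 158 and 167, which is 0.685, 6.79 and 0 CPM against 3.70, 0.361 and 9.10 CPM. Tumor 167 was the highest and tumor 116 had no count, and the age groups overlapped. The log2 fold change was -0.76 (SE 1.38, edgeR adjusted p = 0.942), and it was -3.84 without tumor 107 and 0.31 without tumor 167. Fcer1a had 2, 44 and 0 counts in tumors 102, 107 and 116 and 7, 2 and 16 counts in tumors 157, 158 and 167, which is 0.685, 9.95 and 0 CPM against 1.23, 0.361 and 3.93 CPM. Tumor 107 was again the highest and tumor 116 again at 0, and the level in tumor 107 was 16.6-fold that of 3 counts in tumor 116. In the fit without a filter its log2 fold change was 0.98 (SE 1.35, edgeR adjusted p = 0.88).

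Hdc, histidine decarboxylase, which makes histamine from histidine, varied less than the proteases. It was at 1.71, 7.24 and 0.598 CPM in tumors 102, 107 and 116 and at 3.17, 1.26 and 4.67 CPM in tumors 157, 158 and 167. The tumors took the same order as for Cma1, and the ratio of the highest to the lowest was 12.1 (exact interval 3.79 to 61.8). The log2 fold change was 0.10 (SE 0.90, edgeR adjusted p = 0.99), with the opposite sign without tumor 107 (-1.44), without tumor 158 (-0.28), with library totals (-0.063) and with limma-voom (-0.36).

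Kit was the gene that departed from this pattern. It was at 245, 171 and 294 CPM in older tumors 102, 107 and 116 and at 36.6, 116 and 50.9 CPM in younger tumors 157, 158 and 167. All older tumors were above all younger ones, and tumor 116, which had the lowest level of Cpa3, Cma1, Tpsab1, Ms4a2, Fcer1a and Hdc, had the highest level of Kit. The means were 237 ± 61.7 CPM (SD, n = 3) in older and 67.7 ± 42.1 CPM (SD, n = 3) in younger tumors. The log2 fold change was 1.81 (SE 0.46, 95% interval 0.74 to 2.87, edgeR unadjusted p = 0.00474 and adjusted p = 0.322), which did not pass the threshold over all genes. It stayed between 1.501 and 2.44 when each tumor was left out in turn. DESeq2 gave 1.80 (SE 0.49, adjusted p = 0.0173) and called it, in a fit that called 2.48% of all genes. Other genes of luminal progenitor and alveolar cells did not split by age: Elf5, a transcription factor of alveolar differentiation, was at 698, 226 and 201 CPM in tumors 102, 107 and 116 and at 106, 556 and 40.8 CPM in tumors 157, 158 and 167. Of the 8 genes of that list, Kit included, 4 had a log2 fold change above 0 and 4 below, with a median of 0.02, and the part that epithelial cells have in the Kit level was not tested.

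Over the whole set, 0 of the 7 genes tested passed an adjusted p of 0.05 in edgeR and 1, Kit, had an unadjusted p under 0.05, against 0% and 8.59% of all genes tested (5.3% with older tumors higher and 3.29% lower), and DESeq2 called 1 of them. Of the 9 genes, 2 had age groups that did not overlap, Kit with older tumors higher and Mcpt1 with older tumors lower, and among the 7 tested it was Kit alone, where 12.1% of all genes tested had groups that did not overlap, 6.49% with older tumors higher and 5.61% with older tumors lower. The median log2 fold change of the 7 genes was 0.11, and that of all genes tested was -0.0039. For the 6 tested genes other than Kit the intervals reached from -3.99 to 3.42 on the log2 scale, so a change by age of several fold in either direction was not detectable with 3 tumors per group.

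**Figure D2:**
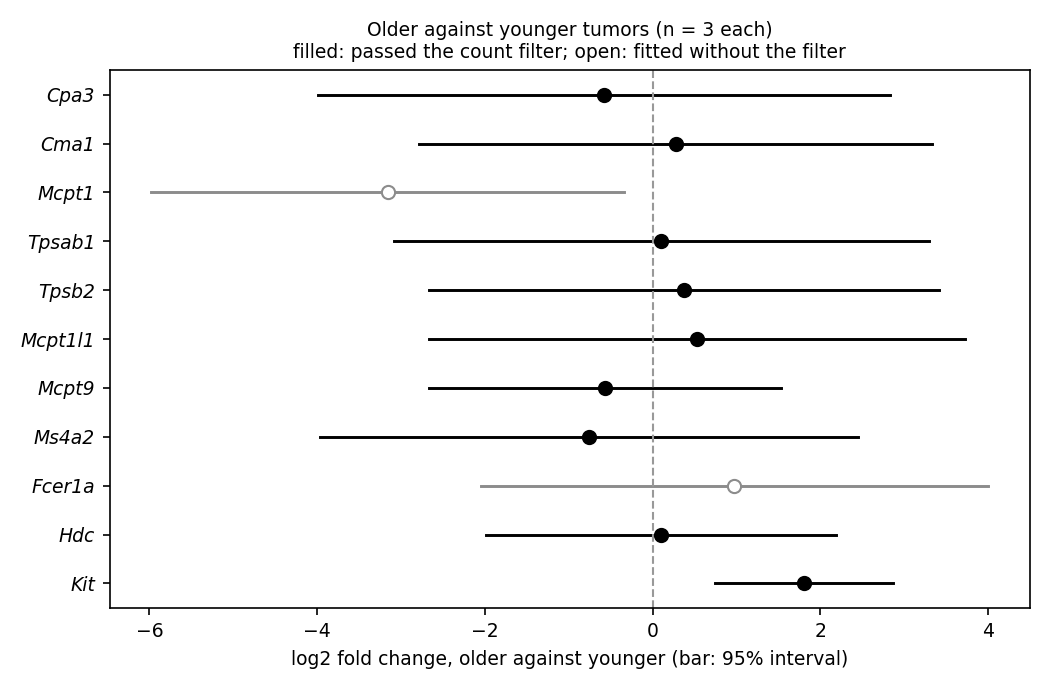
Log2 fold change of older against younger tumors (x axis, 3 tumors per group) for the mast cell genes and for Mcpt1l1 and Mcpt9 of the chymase cluster, with bars for the 95% interval from edgeR, filled points for genes that passed the count filter and open points for Mcpt1 and Fcer1a, fitted without it. The intervals of Kit (0.74 to 2.87) and of Mcpt1 (-5.97 to -0.34, fitted without the filter) lie off 0, before any adjustment for the number of genes, and those of the other genes include 0.

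The size of the variation between tumors was itself a feature of these genes. The standard deviation of log2 CPM over the 6 tumors was 2.47 for Cpa3, larger than or equal to that of 99.7% of all genes tested, whose median was 0.448. It was 2.03 for Tpsab1, 1.98 for Tpsb2, 1.84 for Ms4a2 and 1.69 for Cma1, at or above 97.8% of the genes tested in each case. Hdc (1.07) and Kit (1.22) were at or above 89.1% and 92.5% of the genes. Counts as low as these add spread of their own, yet the counting intervals of the highest and the lowest tumor were apart for Cpa3 (67.3 to 84.4 against 0.123 to 1.75 CPM), as they were for Hdc (4.95 to 10.2 against 0.123 to 1.75 CPM).

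The genes varied together. When all 13138 other genes tested were ranked by the root mean square difference between their centred log2 CPM profile and that of Cpa3 over the 6 tumors, the 8 nearest were Mcpt1l1 (0.63), Ms4a2 (0.66), Tpsab1 (0.72), Tpsb2 (0.76), Cma1 (0.86), Nlgn1 (1.23), Tnni2 (1.23) and Hdc (1.33), in log2 units. Thus 5 of the 6 tested genes of the set other than Cpa3, as well as Mcpt1l1, were among the 8 nearest, while Kit stood at rank 12798 of 13138 with a difference of 3.01. Nlgn1 encodes neuroligin 1, a synaptic adhesion protein, and was at 1.37, 4.75 and 0.798 CPM in older tumors 102, 107 and 116 and at 3.87, 1.44 and 14.0 CPM in younger tumors 157, 158 and 167. Tnni2 encodes fast skeletal troponin I and was at 2.40, 7.47 and 0.598 CPM in the older and at 2.47, 0.541 and 5.16 CPM in the younger tumors. Both were at low counts, at most 57 in any tumor, and these distances describe 6 libraries without a test. Mcpt1l1, Ms4a2, Tpsab1 and Tpsb2 were among the 8 nearest under all 8 other settings tried, which included each tumor left out, Cma1 under 6, Tnni2 under 3, and Nlgn1 and Hdc under 2.

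**Figure D3:**
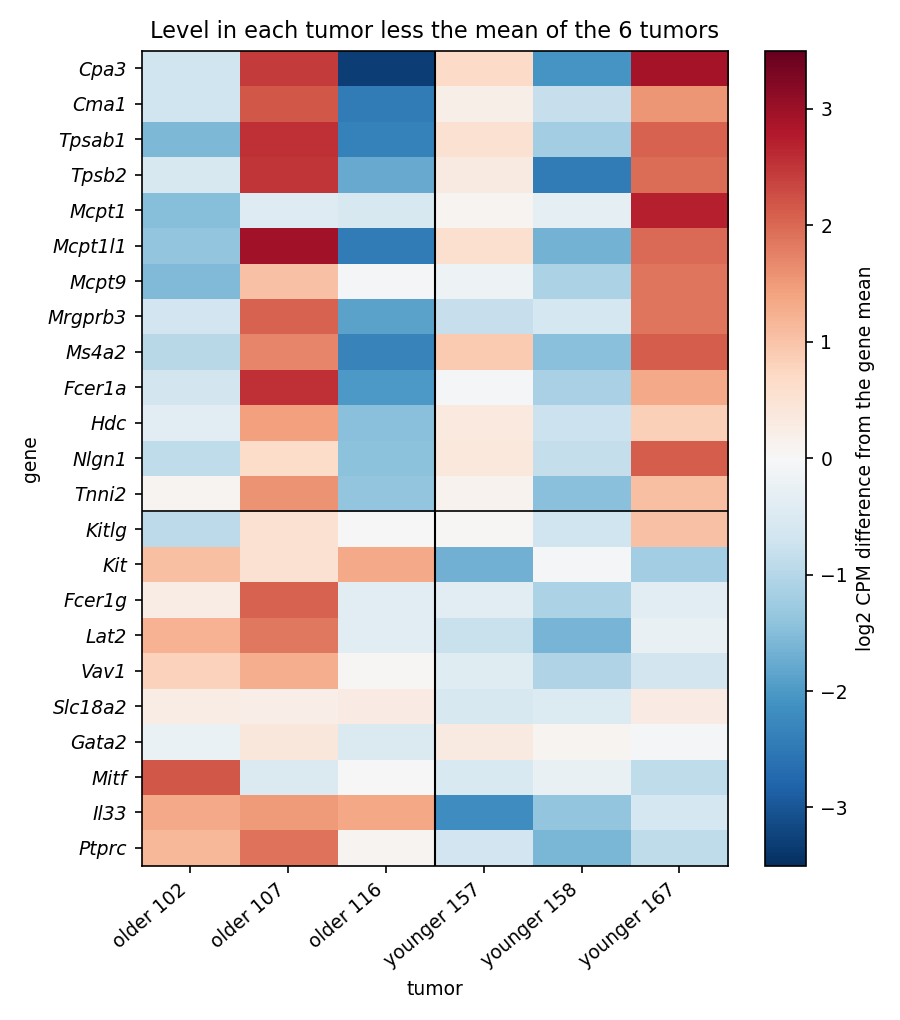
Level of each gene in each tumor less that gene's mean over the 6 tumors, in log2 CPM (colour bar), with older tumors left and younger tumors right of the vertical line. Genes above the horizontal line, from Cpa3 to Tnni2, are mostly high in tumors 107 and 167 and low in tumors 116 and 158, whereas Kit, Il33 and Ptprc below it are higher in the 3 older tumors.

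The sequences before the start of these genes are shown because most of the genes moved together between tumors. Kit, shown for contrast, did not follow them. Mcpt1 and Fcer1a were below the count filter and were not ranked against Cpa3. GATA2 and MITF are transcription factors of the mast cell lineage. RefSeq promoter entries on build GRCr8 were matched by symbol for 8 of the 9 genes, and the 250 bases before the start were searched on both strands for the GATA words AGATAA and TGATAA and for the E-box words CACATG and CACGTG, which MITF can bind. A GATA word was present in 4 of the 8 (Cpa3, Cma1, Mcpt1 and Fcer1a) and in 16.9% of 33469 promoters in the table, and an E-box word in 3 of the 8 (Cpa3, Tpsb2 and Fcer1a) and in 17.1% of promoters. The words do not overlap each other in these windows, and a match describes letters, not binding. The windows, 5′ to 3′ on the strand of the gene and with the matched words in capitals, are chr2:104673238-104673487 (minus strand) for Cpa3, chr15:33390134-33390383 (minus strand) for Cma1, chr15:33841356-33841605 (plus strand) for Mcpt1, chr15:33876896-33877145 (minus strand) for Mcpt1l1, chr13:88224680-88224929 (minus strand) for Fcer1a and chr14:32978813-32979062 (minus strand) for Kit.
Cpa3: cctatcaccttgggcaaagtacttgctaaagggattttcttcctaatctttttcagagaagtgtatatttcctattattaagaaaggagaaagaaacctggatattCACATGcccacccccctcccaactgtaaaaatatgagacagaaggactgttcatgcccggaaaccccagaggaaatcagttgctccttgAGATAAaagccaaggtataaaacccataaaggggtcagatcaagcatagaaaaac
Cma1: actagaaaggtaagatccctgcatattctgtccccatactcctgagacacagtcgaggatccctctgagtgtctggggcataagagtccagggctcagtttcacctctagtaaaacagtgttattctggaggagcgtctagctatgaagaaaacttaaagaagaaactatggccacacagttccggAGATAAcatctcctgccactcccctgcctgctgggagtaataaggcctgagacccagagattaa
Mcpt1: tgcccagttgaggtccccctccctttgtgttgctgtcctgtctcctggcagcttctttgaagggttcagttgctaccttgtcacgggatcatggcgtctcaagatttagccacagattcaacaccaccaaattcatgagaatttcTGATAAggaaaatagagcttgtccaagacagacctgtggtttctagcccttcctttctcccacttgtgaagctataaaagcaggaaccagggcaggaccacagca
Mcpt1l1: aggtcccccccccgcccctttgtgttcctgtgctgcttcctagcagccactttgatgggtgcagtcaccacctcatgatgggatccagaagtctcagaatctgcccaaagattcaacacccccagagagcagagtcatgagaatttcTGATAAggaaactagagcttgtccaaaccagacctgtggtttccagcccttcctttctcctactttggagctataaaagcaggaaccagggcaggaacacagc
Fcer1a: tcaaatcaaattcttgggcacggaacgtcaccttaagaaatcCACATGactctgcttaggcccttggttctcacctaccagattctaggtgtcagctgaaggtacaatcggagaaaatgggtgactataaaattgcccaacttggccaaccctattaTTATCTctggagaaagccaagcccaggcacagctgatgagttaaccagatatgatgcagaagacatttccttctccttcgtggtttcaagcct
Kit: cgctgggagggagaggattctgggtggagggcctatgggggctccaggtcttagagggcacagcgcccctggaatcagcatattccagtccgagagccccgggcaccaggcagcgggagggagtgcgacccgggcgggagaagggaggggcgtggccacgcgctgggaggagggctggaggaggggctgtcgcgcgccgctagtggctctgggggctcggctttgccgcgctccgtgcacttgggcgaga
The GATA word lies at bases -55 to -50 from the start in Cpa3 and at -64 to -59 in Cma1. In Mcpt1 and Mcpt1l1 the word TGATAA lies at -105 to -100 and at -103 to -98, and the windows of these neighbours are 77.1% identical over 262 aligned positions. The tryptase windows of Tpsab1 and Tpsb2 are 55.7% identical, close to the 52.2% of Mcpt1 and Cma1, and hold no GATA word. The Kit window holds none of the words searched. The windows of Tpsab1 and Hdc, both among the 8 genes nearest to Cpa3 in profile, hold none of them either. Presence of a word therefore did not separate the genes near Cpa3 from Kit.

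Within a tumor, the balance of the proteases could be compared as the share of counts that each gene took in a pair, which does not depend on library scaling. Tpsab1 took 41.4% of the tryptase counts in tumor 107 (exact 95% binomial interval 35.4 to 47.5%), 42.9% in tumor 167 (35.3 to 50.7%) and 44.0% in tumor 157 (32.5 to 55.9%), so the 3 tumors with the most tryptase did not differ beyond counting error. Mcpt1l1 took 66.6% of the counts of Mcpt1l1 and Cpa3 in tumor 107 (63.0 to 70.0%), 57.3% in tumor 157 (50.2 to 64.1%) and 42.9% in tumor 167 (38.7 to 47.2%). Here the intervals of tumors 107 and 167 were apart, so the older tumor 107 had more of this chymase row per Cpa3 read than the younger tumor 167. The same held for Cma1, with 15.6% of its sum with Cpa3 in tumor 107 (11.6 to 20.3%) and 7.81% in tumor 167 (5.16 to 11.2%), and for Tpsb2, with 39.1% (34.3 to 44.1%) and 23.8% (19.7 to 28.3%). The Mcpt1l1, Cma1 and Tpsb2 shares rest on the same Cpa3 counts, 243 in tumor 107 and 307 in tumor 167, so they are not independent. The Mcpt1l1 intervals of younger tumors 157 and 167 were also apart, while those of tumors 107 and 157 overlapped. Mcpt1 took 0.411% of the counts of Mcpt1 and Mcpt1l1 in tumor 107 (0.0499 to 1.48%) and 11.8% in tumor 167 (8.18 to 16.4%). Its share was also apart from tumor 107 in older tumor 116 (1.92 to 45.45%) and younger tumor 158 (2.45 to 30.15%), on 2 and 3 Mcpt1 counts. The intervals of tumor 102 (0 to 21.8%) and tumor 157 (1.33 to 9.23%) overlapped that of tumor 107. Tumors 102, 116 and 158 had fewer counts and wider intervals. Even so, the Mcpt1l1 share was apart from that of tumor 167 in tumor 116 (49.2 to 95.3%) and in younger tumor 158 (49.5 to 82.6%), and the Tpsb2 share was apart from it in tumor 116 (34.8 to 93.3%). For Mcpt1l1 the intervals of tumor 102 (29.1 to 65.3%) and tumor 167 overlapped, and these comparisons of single libraries are no test of age.

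Most other proteases of the mast cell family had few counts, no count or no row in the table. Mcpt2, Mcpt3, Mcpt8, Mcpt8l2 and Mcpt8l3 have no row, so their level is not known. Mcpt10, Mcpt1l2, Mcpt1l4 and Tpsg1 had at most 10 counts in any tumor. Of the 16 on the list, 11 have a row in the table and 5 of these (Mcpt4, Mcpt4l1, Mcpt1l3, Prss34 and Ctsg) had no count in any tumor. A count of 3 would be 0.528 to 1.03 CPM in these libraries. How reads that match related genes were counted was not tested, so an empty row sets no upper limit on the level of its gene. Only Mcpt1l1 and Mcpt9 passed the filter, and 0 of them passed an adjusted p of 0.05 in edgeR or an unadjusted p under 0.05. Over all genes tested the shares were 0% and 8.59%. Mcpt9 was at 2.40, 16.5 and 7.58 CPM in older tumors 102, 107 and 116 and at 6.87, 3.43 and 29.8 CPM in younger tumors 157, 158 and 167, again highest in tumors 167 and 107. In RefSeq order Mcpt9, Mcpt1, Mcpt1l1, Mcpt10 and Ctsg follow each other on chromosome 15, so neighbours in this stretch ranged from no count at all to 484 counts in tumor 107. Gzmb, a cytotoxic lymphocyte protease farther along the same chromosome, was at 206 CPM in tumor 107 but at 1.48 CPM in tumor 167, where the mast cell proteases were as high.

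Among genes that signal from the IgE receptor, 0 of the 15 tested passed an adjusted p of 0.05 in edgeR, and 3 had an unadjusted p under 0.05, all higher in older tumors, where 5.3% of all genes did so in that direction. Their log2 fold change was above 0 for 14 of 15, against 49.6% of all genes tested, with a median of 0.88. Fcer1g, the shared gamma chain, was at 45.2, 158 and 28.5 CPM in tumors 102, 107 and 116 and at 28.5, 17.1 and 28.3 CPM in tumors 157, 158 and 167, a log2 fold change of 1.65 (SE 0.63, edgeR adjusted p = 0.504). Lat2, an adaptor phosphorylated downstream of the receptor, and Vav1, an exchange factor of blood cells, had log2 fold changes of 2.01 (SE 0.63, edgeR adjusted p = 0.39) and 1.56 (SE 0.46, edgeR adjusted p = 0.365). These genes are used by many leukocytes. Tumor 167, among the highest for the proteases, was above tumor 158 alone for Fcer1g and Vav1 and below tumors 107 and 102 for Lat2, while Stim1, the calcium sensor of the endoplasmic reticulum, was highest in it at 114.8 CPM.

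Among other surface receptors of mast cells, 0 of the 7 tested passed the adjusted threshold. Csf2rb, the shared beta chain of the IL-3 and GM-CSF receptors, had an unadjusted p under 0.05 (log2 fold change 1.35, SE 0.57, edgeR adjusted p = 0.575). It was the 1 gene of the 7 to do so, where 5.3% of all genes tested did so with older tumors higher. Il1rl1, the receptor for IL-33, was at 60.9, 12.4 and 6.38 CPM in tumors 102, 107 and 116 and at 10.7, 3.07 and 20.6 CPM in tumors 157, 158 and 167. Mrgprb3, a receptor of the Mrgpr family that includes the mast cell receptors for basic secretagogues, was below the filter and is named with its values known. It was at 9.27 CPM in tumor 107 and 8.11 CPM in tumor 167, and between 0.199 and 1.08 CPM in the others. It thus had the leading tumors of the proteases, at low counts.

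Genes of granule matrix, amine loading and exocytosis gave 1 gene higher and 1 lower in older tumors at an unadjusted p under 0.05 among 14 tested, and 0 past the adjusted threshold. Over all genes tested the shares at that unadjusted p were 5.3% higher and 3.29% lower in older tumors. Unc13d, which primes granules for release, had a log2 fold change of 1.31 (SE 0.39, edgeR adjusted p = 0.365), and Rab27b, a GTPase of secretory granules, of -2.37 (SE 0.65, edgeR adjusted p = 0.342). Srgn, serglycin, was at 16.8, 18.1 and 6.98 CPM in the older and at 10.04, 5.59 and 5.65 CPM in the younger tumors, and Slc18a2, the vesicular monoamine transporter that loads histamine, lay between 11.8 and 21.9 CPM in all 6. Neither spanned the range of the proteases. For lipid mediators, 0 of 5 tested genes passed the adjusted threshold and 1 had an unadjusted p under 0.05, Ptgs1, cyclooxygenase 1, with a log2 fold change of 1.02 (SE 0.38, edgeR adjusted p = 0.496). Ptgs1 was higher in older tumors, as were 5.3% of all genes tested at that unadjusted p. Hnmt, which methylates histamine, had no count in any tumor, and of that list only Aoc1, which oxidizes histamine, was tested, at 0.491 CPM in tumor 167 to 30.9 CPM in tumor 116 (adjusted p = 0.884, edgeR).

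Of 10 transcription factors tested, 0 passed the adjusted threshold and 1, Stat5b, had an unadjusted p under 0.05 (log2 fold change 0.79, SE 0.33, edgeR adjusted p = 0.564). Over all genes tested, 5.3% had an unadjusted p under 0.05 with older tumors higher. Gata2 was at 2.74, 4.52 and 2.19 CPM in older tumors 102, 107 and 116 and at 4.23, 3.61 and 3.20 CPM in younger tumors 157, 158 and 167, without the wide range of the proteases. Mitf was at 81.5 CPM in tumor 102 and between 9.34 and 17.8 CPM in the other 5 tumors. Among growth factors and cytokines, Kitlg, which encodes stem cell factor, was at 238, 653 and 451 CPM in tumors 102, 107 and 116 and at 465, 276 and 911 CPM in tumors 157, 158 and 167. Its 3 highest tumors, 167, 107 and 157, were also those of Cpa3 and in the same order, while its age groups overlapped (log2 fold change -0.30, SE 0.52, edgeR adjusted p = 0.94). The lowest tumor was 102 for Kitlg and 116 for Cpa3. In likeness to the Cpa3 profile Kitlg stood at rank 245 of 13138, with a difference of 1.84. How many genes share these 3 highest tumors was not counted. Il33, an alarmin that acts on mast cells, was at 500.5, 565 and 514 CPM in the older and at 44.4, 77.3 and 132 CPM in the younger tumors, so it did not have the order of the mast cell genes. Il3, Il4 and Il9 had no count in any tumor.

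Markers of other cell types did not have the tumor order of the mast cell proteases. The 5 proteases summed to 11.6, 126 and 2.79 CPM in tumors 102, 107 and 116 and to 31.9, 5.59 and 131 CPM in tumors 157, 158 and 167. Ptprc, the CD45 antigen of all leukocytes, was at 211, 352 and 100.5 CPM in the older and at 58.5, 30.7 and 50.9 CPM in the younger tumors, without overlap (log2 fold change 2.25, SE 0.48, edgeR adjusted p = 0.271). The 10 macrophage markers had log2 fold changes above 0 throughout, 6 with an unadjusted p under 0.05 (5.3% of all genes in that direction) and 0 past the adjusted threshold, and summed to 581 to 1259 CPM in older and 162 to 320 CPM in younger tumors. The T and NK cell markers summed to 36.9 to 491 CPM in older tumors, highest in tumor 107, and to 11.7 to 15.7 CPM in younger ones. The dendritic cell list summed to 40.1 to 203 and 23.1 to 30.5 CPM, and the list of B and plasma cells to 25.8 to 46.1 and 3.87 to 7.21 CPM. An unadjusted p under 0.05, higher in older tumors, was reached by 5 of 5 tested T and NK cell genes, 3 of 6 dendritic and 2 of 2 B and plasma cell genes, where 5.3% of all genes tested did so, and 0 of these passed the adjusted threshold in edgeR. Tumor 167, the highest for Cpa3, was the lowest for macrophage markers.

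Basophils, the other cells with the IgE receptor and histamine, have few markers in the table: Prss34 was at 0 in all tumors, and Ms4a2, Fcer1a, Il3ra and Cebpa of that list are not particular to them. The 9 neutrophil markers were below the filter in every case and summed to 1.23 to 9.92 CPM. Of the eosinophil granule proteins, Prg2, Prg3 and Ear1 had no count and Epx, the peroxidase, had 1 to 6 counts in each tumor. Fibroblast markers summed to 1417, 177 and 660 CPM in tumors 102, 107 and 116 and to 1148, 1178 and 143 CPM in tumors 157, 158 and 167, so the tumors with the most protease transcripts, 107 and 167, had the lowest sums of these connective tissue genes. Endothelial markers summed to 116 to 431 CPM in older and 81.4 to 334 CPM in younger tumors, and adipocyte markers to 112 to 789 CPM and 84.3 to 169 CPM. The 5 measured epithelial markers summed to 1174 to 1499 CPM in older and 1872 to 2458 CPM in younger tumors. Of these lists, 1 of 7 endothelial genes (Tek, the angiopoietin receptor) and 1 of 1 tested eosinophil gene (Siglec5) had an unadjusted p under 0.05, both higher in older tumors, against the same 5.3%, and 0 of 3 basophil, 10 fibroblast, 5 adipocyte and 5 epithelial genes did. The part of these cell types in the mast cell values was not tested.

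Set against the leukocyte transcript, the Cpa3 level was lower in older tumors 102 and 116 than in any younger tumor, and in older tumor 107 it lay within the younger range. The difference of log2 CPM between Cpa3 and Ptprc was -5.08, -2.67 and -6.61 in older tumors 102, 107 and 116 and -1.89, -3.69 and 0.56 in younger tumors 157, 158 and 167. The means were -4.79 ± 1.99 (SD, n = 3) and -1.67 ± 2.13 (SD, n = 3), a difference of -3.12 that overlapped between the groups (two-sided exact permutation test, p = 0.2, where 3 tumors against 3 cannot give less than 0.1). The difference kept its sign in each of the 8 other settings, between -4.18 and -2.003. Both transcripts enter it, and Ptprc had the larger change of the pair. Ptprc was higher in older tumors (log2 fold change 2.25), while Cpa3 overlapped between the groups (log2 fold change -0.58, edgeR adjusted p = 0.961). The difference is thus no measure of Cpa3 alone. The log2 ratio of the group means of the summed proteases was -0.26, smaller than the spread between tumors, and it was -2.96 without tumor 107, 0.20 without tumor 102, 0.29 without tumor 116 and 1.32 without tumor 167.

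**Figure D4:**
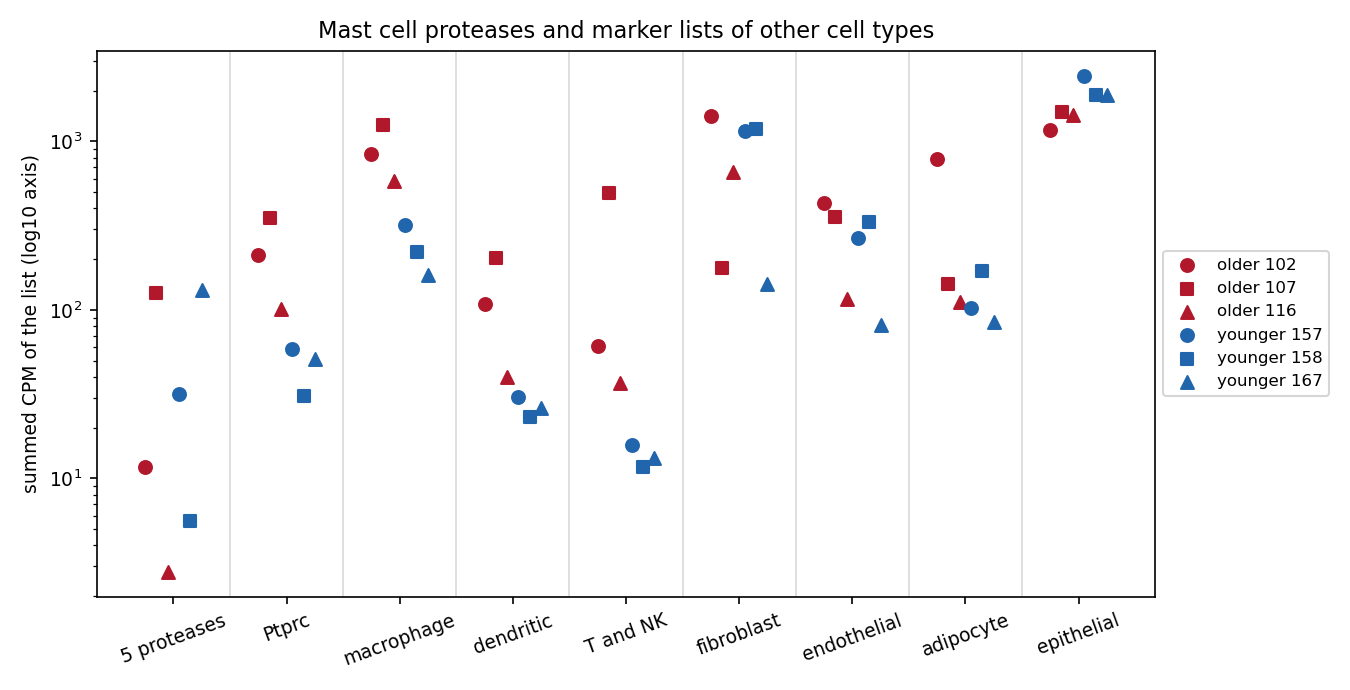
Summed CPM (log10 axis) of the 5 mast cell proteases, of Ptprc and of marker lists of other cell types, in each tumor, with older tumors in red and younger tumors in blue and 1 symbol per tumor. The proteases span 2.79 to 131 CPM with the age groups interleaved, whereas Ptprc and the macrophage, dendritic and T and NK cell lists lie higher in the 3 older tumors.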

How the data were processed

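Bulk RNA sequencing of 6 rat mammary tumors was used, 3 per age group by the labels. The authors depleted ribosomal RNA (the labels also say polyA RNA). Per the submitters' processing notes they trimmed reads with Trimmomatic 0.38, aligned them with STAR 2.7.9a to mRatBN7.2, marked duplicates with Picard 2.18.12 and deposited raw HTSeq 0.13.5 read counts per gene. Whether counting used strand and marked duplicates is not given in the sources used here. Tumors were matched to columns by tumor ID, with 0 columns left over. Rows without a name (4367 of 30562, 2.17% to 3.64% of counts) were left out.

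The analysis ran in R 4.3.3: edgeR 4.0.16 (filterByExpr by age group, TMM, quasi-likelihood test, Benjamini-Hochberg adjustment over all genes, threshold 0.05), limma 3.58.1 and DESeq2 1.42.0, and checked on simulated data. Standard errors (SE) were computed back from F values, and a prior count of 2 entered log2 CPM. Each library is a separate tumor of a separate rat. Of 25882 names, 23229 are RefSeq symbols (GRCr8) and 247 synonyms only. The genes, lists and tests were chosen with earlier results of these data known. The naming rule covered all 9 genes, the 8 profiles nearest to Cpa3 and, in each list, the 4 highest in CPM or any with an unadjusted p under 0.05; others were chosen after their values were seen. Alternatives were other scalings, filters and tests, a prior count of 0.5, leaving out the 10 most abundant genes or each tumor, and, added after seeing the data, keeping unnamed rows.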

Additional observations from a re-analysis of the deposited data

How the results depend on the processing

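No paired analysis was possible because each tumor is of another rat and tumor numbers do not recur between age groups. The count of 0 genes past the threshold, among the mast cell genes and over all genes, became 1 (Kit, log2 fold change 1.80, adjusted p = 0.0173) and 326 with DESeq2, and was 0 with limma-voom, library totals, size factors from DESeq2, no filter, a minimum of 10 counts in every tumor, the 10 most abundant genes removed, unnamed rows kept and each tumor left out. With at least 10 counts in every tumor only Kit could be fitted. Of 92 refitted fold changes of the 7 tested genes, 75 kept sign and side of the threshold, 1 moved past it (Kit, with DESeq2) and 16 changed sign, none of them for Kit. Library totals turned Tpsab1 to -0.089 and Hdc to -0.063, and limma-voom turned Cma1 to -1.23, Tpsab1 to -1.01 and Hdc to -0.36. With each tumor left out, Cpa3 ranged from -3.36 to 1.23, Cma1 from -2.81 to 1.23, Tpsab1 from -3.57 to 1.28, Tpsb2 from -2.06 to 1.73, Ms4a2 from -3.84 to 0.31 and Hdc from -1.44 to 0.60, with the lowest values without tumor 107 and the highest without tumor 167 (Hdc without tumor 116, at 0.60). Of the 8 genes nearest to Cpa3, 4 to 6 remained with a tumor left out, and the log2 ratio of the summed proteases ranged from -2.96 to 1.32. The cause was not tested. At these totals, genes near 3 counts such as Mcpt1 are limited by counting error.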

Other observations

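Tumor 102 differed from the other tumors in some genes of the eosinophil list, though not in its granule genes. Ccr3, the eotaxin receptor of eosinophils, was at 23.6 CPM in tumor 102 and between 0 and 0.399 CPM in the other 5 tumors, and Il5ra, the IL-5 receptor alpha chain, was at 3.42 CPM in tumor 102 and 0 in the others. Alox15, a lipoxygenase of eosinophils and macrophages, was at 5.48 CPM there and at most 1.06 CPM elsewhere. Of the macrophage list, Cd163 was at 59.2 CPM in tumor 102 and at most 4.75 CPM elsewhere. Mrc1 was at 77.0 CPM there and at most 23.2 CPM elsewhere, while the sum of that list was highest in tumor 107. Which cells made these transcripts was not tested. The eosinophil granule genes Prg2, Prg3 and Ear1 had no count in any tumor, tumor 102 included, and Epx, the granule peroxidase, had 1 count in tumor 102 and 1 to 6 counts in the others. These genes were singled out after their values were seen, and they describe a single library. In tumor 102 the mast cell proteases summed to 11.6 CPM, so its Ccr3 level did not go with a high level of mast cell transcripts.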
